A study of Drosophila melanogaster with 2 samples.

Results

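The 35 protein-coding genes described here encode the aminoacyl-tRNA synthetases of Drosophila melanogaster. They were picked by name among the 13945 protein-coding genes on the main chromosome arms. A symbol had to be 1 or 2 amino acid codes followed by RS, with -m for a mitochondrial enzyme, or alpha-PheRS or beta-PheRS. The name pattern gave 20 cytosolic and 15 mitochondrial genes. The data are 2 ChIP-seq libraries for CG17802, a ZAD zinc finger protein, made from whole embryos of both sexes, 0 to 14 h old. The embryos came from a transgenic line with stable expression of CG17802 fused at its C terminus to GFP. Both libraries are biological replicates from that line and form 1 group, so no condition was compared with another. A label field names the libraries an input control, whereas their antibody field names CG17802 and another experiment is given as the possible control.

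Aminoacyl-tRNA synthetases join each amino acid to the tRNAs that carry its anticodon and so set the accuracy of translation. The cytosolic enzymes serve the ribosomes that read nuclear mRNAs, and the mitochondrial ones, which are encoded in the nucleus and imported, serve the mitochondrial ribosome. Some genes supply both compartments. No -m gene was matched for the names GlnRS, GluProRS, GlyRS, HisRS, LysRS and ThrRS. For glutamate and proline, however, GluRS-m and ProRS-m were matched as separate mitochondrial genes. The names alone do not show which genes supply both compartments. Whole embryos were used, so binding could not be assigned to a cell type.

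CG17802 was found at the promoters of 8 of 20 cytosolic synthetase genes (40.0%, Wilson 95% interval 21.9 to 61.3%) and of 1 of 15 mitochondrial ones (6.67%, 1.19 to 29.8%). A gene was counted as bound where a summit of the authors' reproducibility-thresholded peak set lay within 500 bp of any of its transcription start sites (TSSs). Together 9 of 35 synthetase genes were bound (25.7%, 14.2 to 42.1%), against 16.9% of all protein-coding genes. The interval for all 35 holds the background share, as does the one for the mitochondrial genes, and the cytosolic interval begins above it. That background does not allow for promoter arrangement. Of protein-coding genes with an opposite-strand gene starting within 1000 bp upstream, 28.7% were bound, a share that the cytosolic interval holds. Of the 20 cytosolic genes, 17 have this arrangement, described further below. The cytosolic and mitochondrial intervals overlap. Genes are not samples, so these intervals cover counting error only and no test between the sets was made. The bound cytosolic genes were beta-PheRS, GlnRS, ThrRS, ArgRS, IleRS, GluProRS, SerRS and AspRS, and the bound mitochondrial gene was IleRS-m.

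**Figure D1:**
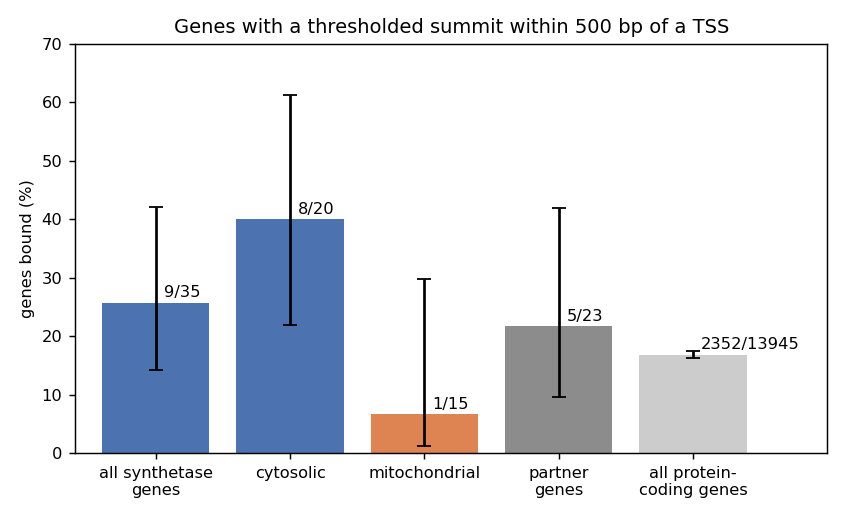
Share of genes (%, vertical axis) with a thresholded summit within 500 bp of a TSS, for all 35 synthetase genes, the 20 cytosolic and the 15 mitochondrial ones, the 23 partner genes and all 13945 protein-coding genes. Bars are shares, lines are Wilson 95% intervals and the fractions are bound over measured genes, with 40.0% for the cytosolic set and 6.67% for the mitochondrial set.

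The sole mitochondrial gene bound had the strongest peak of the family. IleRS-m (FBgn0036569) charges isoleucine in mitochondria and lies at chr3L:16100280-16103482 on the plus strand of dm6. Its peak, chr3L:16100005-16100516, had a thresholded signal of 7667 in the authors' units and ranked 22 of 3535. Its signal was 2470 in replicate 1, at rank 16 of 30000, and 5258 in replicate 2, at rank 21. Of the 2352 bound protein-coding genes, 1.19% had a higher signal. The summit was 55 bp upstream of the TSS in intergenic sequence, and no TSS of another gene lay within 500 bp of it.

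The second strongest was beta-PheRS (FBgn0039175, chr3R:24250460-24252679, minus strand), which encodes the beta subunit of the cytosolic phenylalanyl enzyme, a complex of alpha and beta chains. Its signal was 322.1 in replicate 1, 761.8 in replicate 2 and 1077 in the thresholded set, where it ranked 198. The intergenic summit lay 58 bp upstream of the TSS, and again no TSS of another gene was within 500 bp. The gene of the other chain, alpha-PheRS, was not bound: no peak was listed within 500 bp of its TSS in replicate 1, and replicate 2 had one with a signal of 34.24 at rank 14149. PheRS-m, the single-chain mitochondrial enzyme, had no peak within 500 bp in any of the lists.

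The stretches around the summits of the 6 bound genes below are shown because they carry the binding described here and can be read against the motif counts that follow. Each runs 5′ to 3′ on the gene's own strand and covers 100 bp on each side of the summit, shortened to leave out annotated UTRs. The bases are those of the RefSeq release of the dm6 genome. Capitals mark motif matches on either strand, spelled out in the text after the sequences. The coordinates are chr3L:16100125-16100279 (plus) for IleRS-m, chr3R:24252680-24252825 (minus) for beta-PheRS, chr3R:25265722-25265843 (minus) for GlnRS, chr2L:12103534-12103734 (plus) for ThrRS, chrX:15844154-15844354 (minus) for ArgRS and chr3L:22288394-22288594 (plus) for IleRS.
IleRS-m: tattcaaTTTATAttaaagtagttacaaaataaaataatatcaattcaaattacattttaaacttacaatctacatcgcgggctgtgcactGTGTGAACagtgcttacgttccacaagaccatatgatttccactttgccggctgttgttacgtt
beta-PheRS: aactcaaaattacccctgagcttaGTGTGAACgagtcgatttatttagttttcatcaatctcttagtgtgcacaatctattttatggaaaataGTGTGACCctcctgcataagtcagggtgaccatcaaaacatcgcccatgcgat
GlnRS: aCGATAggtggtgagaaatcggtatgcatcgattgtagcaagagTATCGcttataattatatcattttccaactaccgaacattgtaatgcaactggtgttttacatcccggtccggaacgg
ThrRS: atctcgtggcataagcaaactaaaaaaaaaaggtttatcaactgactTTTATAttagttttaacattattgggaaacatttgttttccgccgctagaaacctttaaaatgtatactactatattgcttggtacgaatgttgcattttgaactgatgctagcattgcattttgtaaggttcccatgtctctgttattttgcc
ArgRS: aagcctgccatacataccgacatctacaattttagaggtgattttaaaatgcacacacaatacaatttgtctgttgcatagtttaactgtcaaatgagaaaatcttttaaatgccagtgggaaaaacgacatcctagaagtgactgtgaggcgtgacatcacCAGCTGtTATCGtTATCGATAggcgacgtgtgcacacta
IleRS: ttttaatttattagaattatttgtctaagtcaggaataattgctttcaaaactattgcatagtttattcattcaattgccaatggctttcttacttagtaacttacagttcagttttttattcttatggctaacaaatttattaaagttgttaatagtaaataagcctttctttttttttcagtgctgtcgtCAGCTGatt

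The summit base is number 101 from the 5′ end in the stretches of IleRS-m, ThrRS, ArgRS and IleRS, number 89 in that of beta-PheRS and number 69 in that of GlnRS. An 8-base word, GTGTGAAC, stood 2 bp upstream of the IleRS-m summit and 57 bp upstream of the beta-PheRS summit, and so occurred at the 2 strongest peaks of the family. The word was picked after the data were seen, because it lay within 50 bp of the summit in 96 of all 3535 thresholded peaks (2.72%) and in 8 of the windows of the same width 500 bp to one side (0.226%). The IleRS-m match is among these 96 and so is part of what singled the word out. The beta-PheRS match, 57 bp from its summit, lies outside the 50 bp window and is not. Within 100 bp of the summit it was in 3.86% of the 1917 promoter peaks. Among the synthetase promoters, taken from 250 bp before to 50 bp after the 5′-most TSS, only those 2 of 35 held it, against 1.22% of all protein-coding promoters. It matches the reverse complement of GGTCACAC at 7 of 8 bases. In IleRS-m the word overlaps both arms of an inverted repeat, gcactgt and acagtgc, which are 7 bases each and separated by 4 bases. Of the 1917 promoter peak windows, 1 held these arms at that spacing, that of IleRS-m itself. The arms were read from that window, so its match was given in advance. Other inverted repeats were not counted, so the count does not show how common such repeats are at promoter peaks.

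The other motifs searched, on both strands, were 7 known promoter words. Motif 1, GGTCACAC, the site of M1BP, was within 100 bp of the summit at beta-PheRS, 5 bp from it, and at GlnRS, 52 bp from it and beyond the printed stretch. That is 2 of 9 bound members, against 6.42% of all promoter peaks. The DRE, TATCGATA, bound by DREF, was at ArgRS alone, against 10.3%. CGATA in at least 2 copies, a BEAF-32 arrangement, was at ArgRS, GlnRS and GluProRS, against 22.3%. A single DRE already holds 2 such copies, 1 on each strand. The E-box CAGCTG was at ArgRS and IleRS (11.8% of promoter peaks), Ohler motif 7 as CATCNCTA at GluProRS (6.1%), and TATAAA at AspRS, SerRS, ThrRS and IleRS-m (33.9%). Ohler motif 6, searched as GTATATTT or GTATTTTT, was at 0 of 9 members and in 8.66% of promoter peaks. With 9 windows, 1 match more or less moves a share far, and no test was made.

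The same words were found in promoters that were not bound. The DRE was in 5 of 35 synthetase promoters, of which 3 were unbound (AlaRS, TrpRS and PheRS-m), against 9.37% of all protein-coding promoters. Motif 1 was in 5 promoters, of which AsnRS-m, AspRS-m and ProRS-m were unbound, against 7.71%. Paired CGATA was in 14 of 35 promoters, 10 of them unbound, against 24.4%. The E-box was in 17 of 35, 13 of them unbound, against 17.7%. Of the 7 known words, its share lay furthest above that of all promoters, a difference that was not tested. TATAAA was in 19 of 35, against 45.9%. Ohler motif 6 was in 4, 3 of them unbound, against 12.5%, and Ohler motif 7 in AlaRS and GluProRS, against 6.43%. A match is a word in the window and does not show a bound site. The median GC content of the windows of 100 bp on each side of the summit was 33.8% for the 9 bound members (26.4 to 43.8%) and 36.3% for all promoter peaks.

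The other cytosolic genes with thresholded peaks had lower signals, and each had a TSS of a second gene within 500 bp of the summit. GlnRS (FBgn0027090, chr3R:25263267-25265721, minus strand), which charges glutamine, had a signal of 273.3 in replicate 1 and 489.4 in replicate 2, and ranked 293 in the thresholded set with 748.9. Its summit lay 54 bp upstream of its own TSS and 69 bp from the TSS of RIOK2, a kinase of small ribosomal subunit maturation, in the 123 bp between the 2 start sites. ThrRS (FBgn0027081, chr2L:12103751-12107170, plus strand), for threonine, had signals of 132.8 and 315.5 in replicates 1 and 2 and 443.1 at rank 546 in the thresholded set. Its summit was 117 bp upstream, against 349 bp from the TSS of Patsas. In both genes the summit was intergenic and nearer to the synthetase.

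ArgRS (FBgn0027093, chrX:15841769-15844145, minus strand), for arginine, had a signal of 80.63 in replicate 1, 248.5 in replicate 2 and 333.6 in the thresholded set (rank 798). Its summit was 109 bp from its own TSS and 222 bp from that of CG8578. IleRS (FBgn0027086, chr3L:22288665-22292810, plus strand), the cytosolic isoleucine enzyme, had 63.34, 227.3 and 291.3 in the same 3 lists and ranked 988 in the thresholded set. Its summit was 171 bp upstream, against 299 bp for Hem, a gene of the actin-regulating Scar complex. Both isoleucine genes were thus bound, IleRS-m with the higher signal in each replicate. GluProRS (FBgn0005674, chr3R:23952136-23958391, minus strand), a single protein that charges both glutamate and proline, had 82.08, 188.8 and 271.5 and ranked 1092, with the summit 71 bp upstream, against 189 bp for the adaptor gene AP-1sigma. All 3 summits were intergenic.

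SerRS and AspRS were the 2 weakest, and for neither was the synthetase the single nearest gene. SerRS (FBgn0031497, chr2L:3035493-3037403, minus strand), for serine, had a signal of 38.11 in replicate 1 (rank 2916), 194.0 in replicate 2 (rank 1138) and 235.5 in the thresholded set (rank 1314). Its summit was 4 bp from its own TSS and 4 bp from that of CG17260, whose start site is 8 bp away on the other strand, so neither gene was nearer, and it fell in an annotated intron of CG17260. AspRS (FBgn0002069, chr2R:12877004-12883168, plus strand), for aspartate, had a thresholded signal of 119.6 at rank 3169, near the lowest in the set (109.8). Its peak, chr2R:12879841-12880170, lies in an intron of Nmda1 and of the longest AspRS transcript. The summit was 278 bp upstream of an internal AspRS TSS and 208 bp from a TSS of Nmda1. In replicate 2 the nearest summit was 12 bp from it, with a signal of 102.5 at rank 2653. In replicate 1 the nearest summit was 1130 bp away, with a signal of 20.81 at rank 12006. The replicate 1 peak counted for AspRS, with 17.93 at rank 18207, was near another of its TSSs. Replicate 1 thus listed no peak at the thresholded AspRS summit.

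**Figure D2:**
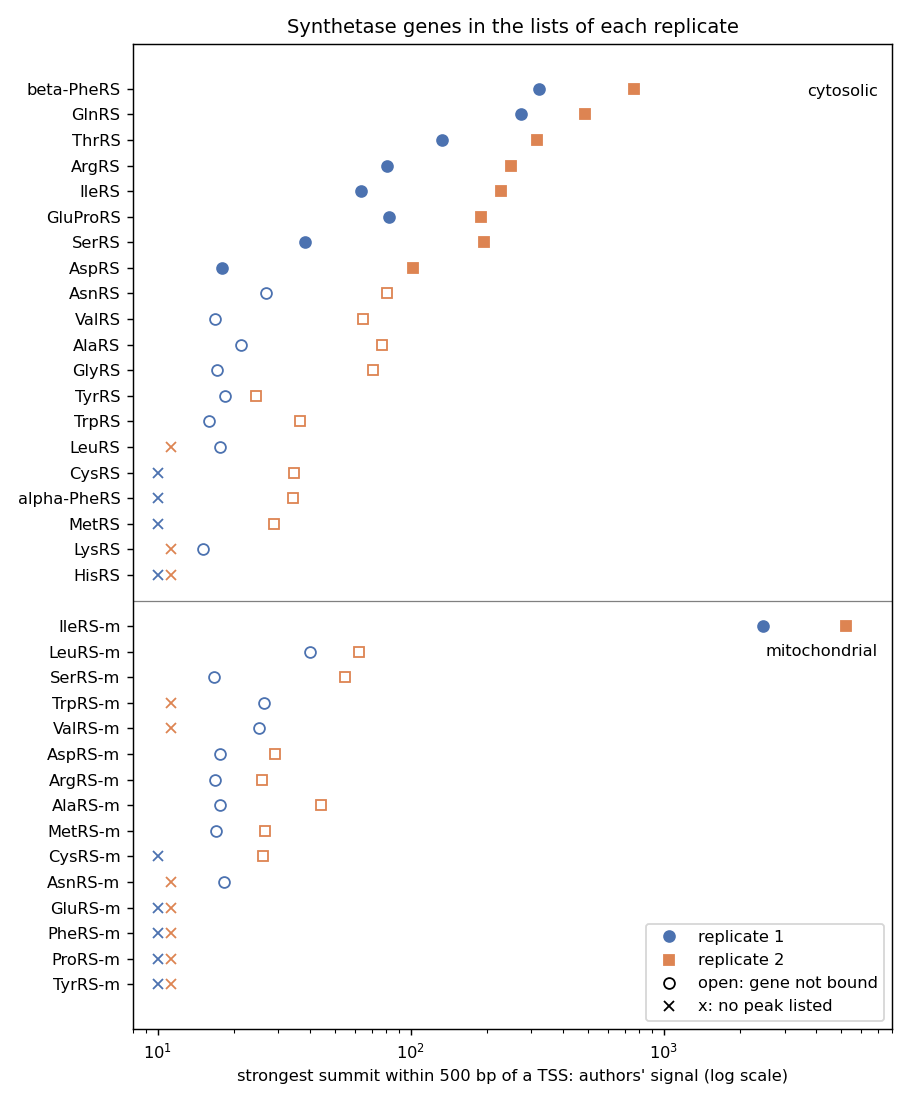
Authors' signal (log scale, horizontal axis) of the strongest summit within 500 bp of a TSS of each synthetase gene in the lists of replicate 1 (circles) and replicate 2 (squares), cytosolic genes above mitochondrial ones. Filled symbols are bound genes, open symbols unbound ones and crosses mark lists with no such peak. IleRS-m stands alone with 2470 and 5258.

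All 9 summits lay upstream of the member's nearest TSS, by 4 to 278 bp with a median of 71 bp. Of all 2352 bound protein-coding genes, 88.6% had theirs upstream, so this position is common. The median thresholded signal of the bound members was 333.6 (119.6 to 7667), against 212.6 for bound protein-coding genes in general. Among bound genes, 8.25% had a higher signal than beta-PheRS, 11.9% than GlnRS, 35.7% than IleRS and 92.6% than AspRS. The members thus ran from near the top of the set to near its bottom.

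**Figure D3:**
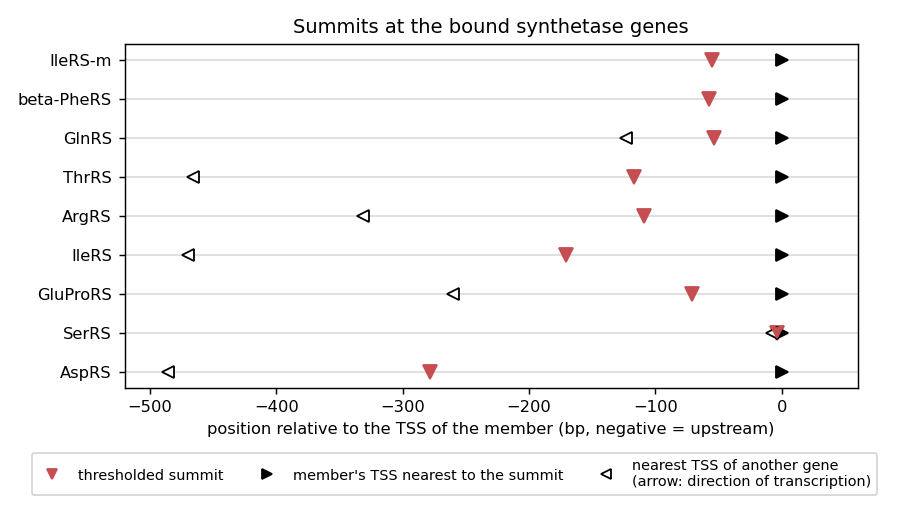
Position of the thresholded summit (filled triangles) (red) relative to the member's nearest TSS (black, 0 bp) and to the nearest TSS of another gene within 500 bp of the summit (open triangles) for the 9 bound synthetase genes, in bp with upstream negative. Summits lie 4 to 278 bp upstream, and IleRS-m and beta-PheRS have no second gene.

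Divergent promoters, where a gene on the other strand starts close by and runs the other way, were common in the family. A TSS of such a gene lay within 1000 bp upstream of 17 of 20 cytosolic genes (85.0%), 7 of 15 mitochondrial ones (46.7%) and 39.6% of all protein-coding genes. Of protein-coding genes with that arrangement 28.7% were bound, and of those without it 9.09%. Among synthetase genes 7 of 24 with the arrangement were bound, all of them cytosolic, and 2 of 11 without it, beta-PheRS and IleRS-m. Within divergent genes the cytosolic count was 7 of 17 and the mitochondrial count 0 of 7. The part of this arrangement in the difference between the cytosolic and mitochondrial counts was not tested. Counting a gene only where no other gene's TSS was nearer to the summit left 7 of 20 cytosolic and 1 of 15 mitochondrial genes, against 12.3% of protein-coding genes.

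A summit within 500 bp among the 3535 highest peaks of both replicates' lists was found for 8 of 35 synthetase genes (22.9%), against 13.1% of protein-coding genes. These were all bound members other than AspRS, or 88.9% of the 9, against 77.0% of the 2352 bound protein-coding genes. The thresholded set was itself chosen for reproducibility between these replicates, so a high share is built into both figures. With 9 members, 1 gene more or less moves the share far. At these 8 genes the replicate summits lay at most 39 bp from the thresholded one. The signals of the replicates are on separate scales. Over the 2312 bound protein-coding genes with a peak in both lists, the median ratio of replicate 2 to replicate 1 was 2.68. The ratio was 2.13 at IleRS-m, 2.37 at beta-PheRS, 1.79 at GlnRS, 2.38 at ThrRS, 2.3 at GluProRS, 3.08 at ArgRS, 3.59 at IleRS and 5.09 at SerRS. SerRS, the weakest of these 8, had the highest ratio. No ratio is given for AspRS, whose replicate peaks lay at different places.

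**Figure D4:**
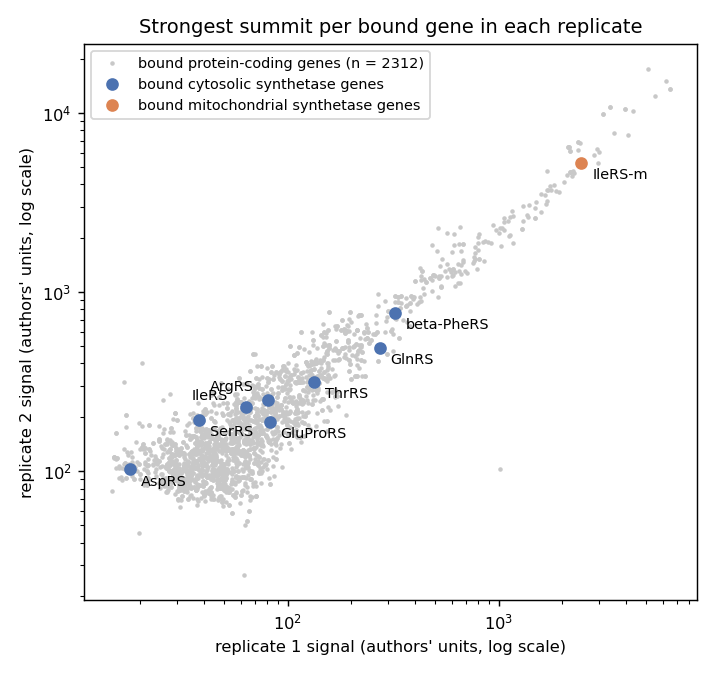
Signal of the strongest summit within 500 bp of a TSS in replicate 1 (horizontal) and replicate 2 (vertical), both in the authors' units on log scales. Grey points are the 2312 bound protein-coding genes with a peak in both lists, and coloured points are the 9 bound synthetase genes, from AspRS (17.93 and 102.5, at different places) to IleRS-m (2470 and 5258).

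Of the 26 unbound genes, 5 had no peak within 500 bp in any list, namely HisRS, GluRS-m, PheRS-m, ProRS-m and TyrRS-m. The lists of 30000 peaks hold mostly background, and a pooled-list summit lay within 500 bp of 25 of 35 members (71.4%), against 47.0% of protein-coding genes. In replicate 1 the count was 26, against 45.2%, and in replicate 2 it was 25, against 47.3%. Most of the unbound genes' peaks ranked far down.

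The nearest to being called was LeuRS-m, the mitochondrial leucine enzyme, with a pooled signal of 105.3 at rank 3755, just under the lowest thresholded signal of 109.8. It ranked 2694 in replicate 1 (signal 40.08) and 5134 in replicate 2 (62.47), and a separate thresholded summit lay 872 bp from its TSS. AsnRS followed with a pooled signal of 93.76 (26.75 in replicate 1 and 80.55 in replicate 2), then ValRS with 93.19, AlaRS with 85.19, GlyRS with 73.06 and SerRS-m with 72.6. A thresholded summit lay 1026 bp from AlaRS, 1735 bp from AsnRS and 1857 bp from alpha-PheRS. The other unbound genes had pooled signals of at most 51.65, the value of TrpRS-m, or no pooled peak. Those with a lower pooled signal were ValRS-m, AspRS-m, TyrRS, ArgRS-m, AlaRS-m, TrpRS, MetRS-m, LeuRS and CysRS-m. CysRS, LysRS, MetRS, alpha-PheRS and AsnRS-m had no pooled peak and a peak in 1 replicate's list only. TrpRS-m, ValRS-m, LeuRS and CysRS-m, which had a pooled peak, were likewise listed in only 1 replicate.

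Bound members numbered 2 of 6 on 2L, 1 of 8 on 2R, 2 of 10 on 3L, 3 of 7 on 3R and 1 of 4 on X. The share of all protein-coding genes bound was 16.6% on 2L, 15.4% on 2R, 17.2% on 3L, 17.7% on 3R and 15.6% on X, and the member counts are too small to compare arms. None of the 35 lies on chromosome 4 or in a centromere-proximal segment.

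Among 23 genes that work beside the synthetases, 5 were bound (21.7%, Wilson 95% interval 9.66 to 41.9%), against 16.9% of protein-coding genes. The elongation factor genes eEF1alpha2 and eEF1alpha1, which carry charged tRNAs to the ribosome, had the highest thresholded signals, 1070 and 926.8. Their summits were 36 and 90 bp from a TSS, with no other gene within 500 bp. For eEF1alpha1, which has 4 TSSs, that TSS is an internal one, and the gene was not bound with 1 TSS per gene. Of the 3 subunit genes of the mitochondrial amidotransferase, which turns glutamate on tRNA into glutamine, GatC (158.3) and GatA (121.7) were bound and GatB was not. The GatC summit was 21 bp from its own TSS and equally near to that of another gene, with PolG2 and Polr2C both within 500 bp, and the GatA summit was nearer to P5cr (3 against 71 bp). Rpp20, of RNase P, had 115.5 with a summit nearer to COX6B (35 against 61 bp).

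The scaffold genes of the multisynthetase complex, AIMP1, AIMP2 and AIMP3, were not bound, and neither were the synthetase-like Slimp, the mitochondrial elongation factors mEFTu1 and mEFTu2, or the deacylase Dtd. The count was also 0 for the tRNA methylation genes Mt2 and Nsun2, for La, and for Gcn2 and crc, the sensor of uncharged tRNA and its downstream transcription factor. Of the 6 genes of tRNA end processing, RNaseZ, Rpp30, rswl, scu and mldr were unbound. Gcn2 had a pooled signal of 101.8, mEFTu1 of 98.52 and AIMP1 of 91.93, all below the lowest thresholded signal.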

How the data were processed

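Per the labels, chromatin was sheared by sonication to 200 to 800 bp. The authors made 1 peak list for each replicate, per the descriptions that came with the files, 1 from both pooled, and a set thresholded for reproducibility (IDR), all on dm6 and against a control. The sources used here name no aligner, peak caller or IDR threshold. The signal of a peak is the deposited narrowPeak value, on a scale that is not stated, and ranks peaks within a list. The deposited −log10 q-value column was not used. Read depth is unknown. Summits were the start plus the deposited offset. An offset outside its interval (1 peak in replicate 1, 4 in replicate 2) became the midpoint.

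Genes and TSSs came from Ensembl release 115, without transposable elements and the Y chromosome, on which the thresholded set has no peak. RefSeq gave identical TSSs for all 35 members. For each gene and list the strongest summit within 500 bp of any TSS was taken. Members, partner genes, motifs and the naming rule (every member named, full values for up to 10 bound members) were chosen with earlier results of these data known. Shares have Wilson 95% intervals (scipy 1.17.1), which cover counting error. No enrichment test was run. The TSS matching and the motif search were tested on simulated data.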

Additional observations from a re-analysis of the deposited data

How the results depend on the processing

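The settings varied were the distance to a TSS (200 or 1000 bp), a single TSS per gene, RefSeq starts, nearest gene only, the 1767 strongest peaks, repeated intervals counted once and each replicate's list alone. Under these the number of bound synthetase genes ranged from 8 to 10 of 35 and that of cytosolic ones from 7 to 8 of 20, while the share of all protein-coding genes ranged from 9.67% (1767 strongest peaks) to 19.2% (1000 bp). AspRS was the gene lost at 200 bp, with 1 TSS per gene, with the nearest gene only, with the 1767 strongest peaks and without replicate 2. The mitochondrial count was 2 of 15 at 1000 bp and without replicate 2, where LeuRS-m was gained, and 1 in the other settings, without replicate 1 included. Partner genes numbered 6 of 23 at 1000 bp (26.1%, against 19.2% of protein-coding genes), where crc was gained. Without replicate 1 they numbered 5 (21.7%, against 16.8%), but Gcn2 was gained and Rpp20 was lost. With 1 TSS per gene they numbered 4 (17.4%, against 15.2%), and eEF1alpha1 was lost. They numbered 3 of 23 with the nearest gene only (13.0%, against 12.3%) and 2 among the 1767 strongest peaks (8.7%, against 9.67%). In these last 2 settings their share was near the background. With the 500 highest peaks, a setting chosen after seeing the data, 3 synthetase genes (IleRS-m, beta-PheRS and GlnRS), 2 cytosolic genes and 2 partner genes were bound, against 3.27% of protein-coding genes. Depth is unknown and 1 to 9 bound genes per set give wide intervals, so a difference in share between the sets has limited precision.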
